A study of Mus musculus with 58 samples.

Results

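The 6 genes Spp1, Onecut1, Glis3, Bicc1, Dcdc2a and Anxa2, a set of duct markers and trunk factors, were followed through the cells of the embryonic mouse pancreas. They were chosen by name, out of 19699 genes counted. All 6 had rows in the deposited table, and none of them was used to define a cell type here. The cells came from embryos of MIP-GFP females, a line whose GFP is driven by the mouse insulin promoter. The MIP-GFP sort takes cells in which that transgene is active, while the other sort took any live cell that excluded a viability dye. Both sorts covered 5 stages between E12.5 and E18.5, as 58 labelled libraries. Cells were placed singly in 384-well plates and processed by SORT-seq, which counts the 3′ ends of transcripts with molecular barcodes. The labels name no treatment or mutation, and they do not say how many embryos each experiment pooled.

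After wells with fewer than 2000 transcripts or 500 genes were left out, 4318 wells on 15 plates remained, from 7 experiments coded EP10 to EP18. EP11 and EP18 held E12.5 cells, EP12 E13.5, EP14 E14.5, EP10 and EP17 E15.5, and EP16 E18.5, so 3 stages rest on 1 experiment each. A plate held between 1222640 and 9490720 transcripts, with a median per well from 6919 to 27218. EP17 and EP18 were the shallow experiments. For the MIP-GFP plates of EP11, EP16 and EP18 the titles name another stage than the stage characteristic, which was used. An E18.5 plate labelled live but coded P6, as MIP-GFP plates were, stood apart: insulin was the main hormone in 96.7% of its wells, against 7.19% on the other live E18.5 plate and 92.2% on the MIP-GFP one. Results in insulin-gated and live epithelial wells of EP16 rest partly on it, and their fits were also run without it.

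The embryonic pancreas divides into a tip, which forms acinar cells, and a trunk, a ciliated bipotent epithelium that forms ducts and, by way of a transient pulse of the transcription factor Neurog3, endocrine cells. Fev marks later endocrine precursors, after Neurog3 has peaked. Spp1 encodes osteopontin, a secreted glycoprotein that binds integrins and CD44 and serves as a duct marker. Onecut1 (HNF6) is a homeodomain factor of the trunk that acts upstream of Neurog3 and is needed for normal duct development. Glis3 is a zinc finger factor whose loss causes neonatal diabetes and cystic kidneys. Bicc1 is an RNA-binding protein whose loss gives cystic kidneys. Dcdc2a is a doublecortin-domain protein of the primary cilium, and Anxa2 is a calcium-dependent membrane-binding protein that pairs with S100a10.

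In the GENCODE M21 annotation of GRCm38, the assembly also called mm10, all 6 are protein-coding. Spp1 spans chr5:104435118-104441050 on the plus strand. Onecut1 lies at chr9:74861921-74891781 and Anxa2 at chr9:69453620-69491795, both on the plus strand. Dcdc2a spans chr13:25056004-25210706 on the plus strand, while Bicc1 (chr10:70922832-71159700) and Glis3 (chr19:28258851-28680077) lie on the minus strand. Of the genes that overlap them, 1 was in the deposited table, a noncoding RNA on the other strand of Glis3 with 8.01 transcripts over all wells.

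The 250 bases before the first start of Spp1 are printed because Spp1 is the member whose windows hold an ACAAAG, a motif of SOX factors such as the trunk factor Sox9. Capitals mark the match, which is on the minus strand and reads CTTTGT on the plus strand. The sequence is from RefSeq, build GRCm38.p6, plus strand, 5′ to 3′, at chr5:104434861-104435110.
Spp1: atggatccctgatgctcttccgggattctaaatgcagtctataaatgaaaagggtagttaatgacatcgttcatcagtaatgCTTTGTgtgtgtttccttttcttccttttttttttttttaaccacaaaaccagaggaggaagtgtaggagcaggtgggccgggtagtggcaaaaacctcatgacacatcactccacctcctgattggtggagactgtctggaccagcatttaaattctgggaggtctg
The first base of the match lay 168 bases before the start. On both strands together, ACAAAG was in 16.5% of all 32851 such windows of 250 bases and in 2 of the 6 windows of members, both of Spp1 (Spp1 has 2 starts, and Bicc1 is not in the table). ATCGAT, a Onecut core, was in 0 of the 6 windows and in 0.728% of all. ACAATG, another SOX motif, was in 0 of the 6 and 10.7% of all. GTGGGAA, an RBPJ motif, was in the Anxa2 window and 5.42% of all. CCGCCC, a GC box, was in the windows of Anxa2, Onecut1 and Glis3 and 32.7% of all. These matches describe the letters of the windows.

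Each well was placed in 1 gate by its own transcripts. Trunk-gated wells (216) had Epcam, at least 2 Sox9 transcripts, no Ptf1a and few acinar or collagen transcripts. At E12.5 this gate also takes multipotent progenitors, which carry Sox9. Neurog3-gated wells (140) had at least 2 Neurog3 transcripts and no Fev, and Fev-gated wells (357) had at least 2 Fev transcripts and no Neurog3. Acinar-gated (189), insulin-gated (1000), glucagon-gated (564), mesenchyme-gated (647) and immune-gated wells (270, with at least 2 Tyrobp transcripts) served for comparison. Levels are in CPM, the share of all transcripts scaled to the usual fixed total, over the summed wells of a gate in 1 experiment with at least 10 such wells. They count molecules and are not scaled by length, so levels of different genes are not ranked against each other. The summed level of 16 trunk and duct markers, 2 of which the trunk gate uses, was 4279 to 8986 CPM in trunk-gated wells, with none of the 16 at 0, and 81.0 to 416 in immune-gated wells. In trunk-gated wells the 9 acinar markers summed to 397 to 1448, 8 mesenchyme markers to 26.9 to 338 and 12 immune markers to 9.32 to 32.8, with Ptf1a, Lyz2 and Ptprc at 0. In the gates compared below the ranges were wider or higher. Acinar markers summed to 199 to 3228 in Neurog3-gated and 70.2 to 2124 in Fev-gated wells, mesenchyme markers to 322 to 950 and 58.7 to 714, and immune markers to 15.46 to 56.7 and 0 to 97.2. The 9 acinar, 8 mesenchyme and 12 immune markers were all found in both gates, and their part in the members' levels was not tested.

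Spp1, Onecut1, Bicc1 and Dcdc2a had their highest mean level in trunk-gated wells among these 8 gates. Anxa2 was higher in mesenchyme-gated wells, and Glis3 was so low throughout, at most 19.8 CPM in any experiment and gate, that 1 of the 8 fits could test it. The plot of levels by gate shows the 6 genes side by side.

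**Figure D1:**
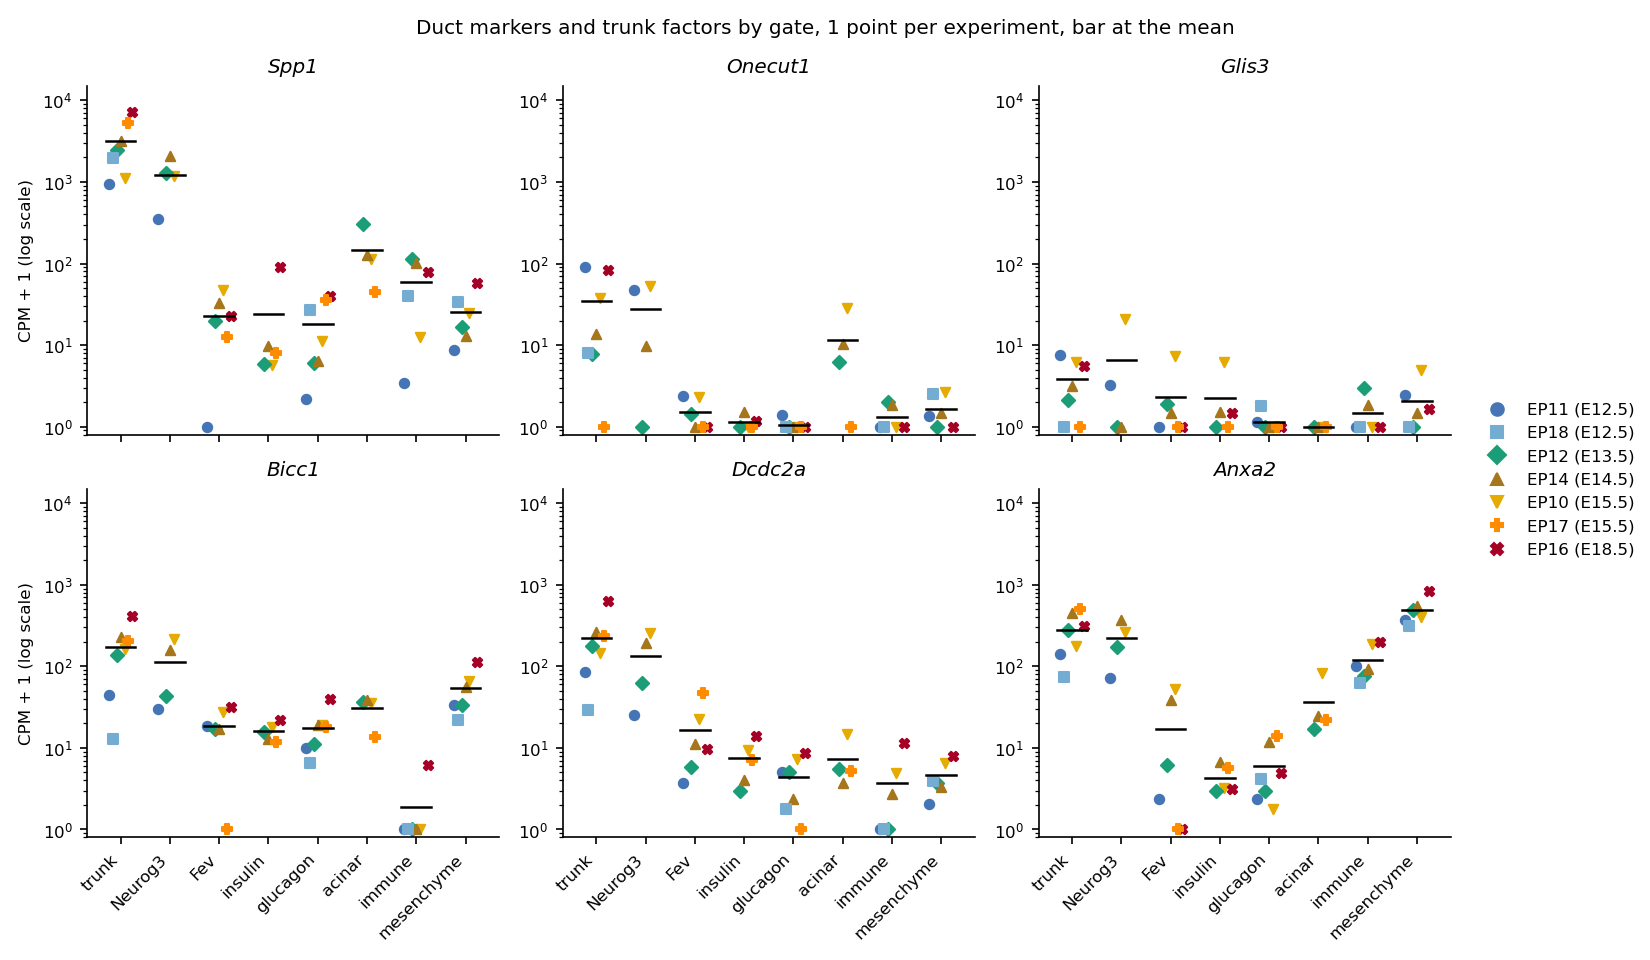
Level of each member (CPM plus 1, log axis) in 8 gates, with 1 point per experiment of at least 10 wells and a bar at the mean. Spp1, Bicc1 and Dcdc2a are high in trunk- and Neurog3-gated wells and low in Fev-gated wells, while Anxa2 stays high in mesenchyme- and immune-gated wells.

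From trunk to Fev, no tested member differed by a passing test at the Neurog3 step, and all that were tested were lower at the Fev step. None of the 5 members tested passed edgeR's test between trunk- and Neurog3-gated wells (2 of 5 at an unadjusted p under 0.05, and 0 with DESeq2), and all 5 were lower in Fev-gated than in Neurog3-gated wells, by 6.06-fold for Bicc1 to 61.8-fold for Spp1. Spp1 was the member with the largest fitted difference. Spp1 stood at 947 to 7236 CPM over 7 experiments of trunk-gated wells, with a median of 2431. In Neurog3-gated wells it stood at 1184 in EP10, 351 in EP11, 1293 in EP12 and 2059.8 in EP14. In Fev-gated wells it ranged from 0 to 45.9 over 6 experiments, with a median of 20.2. Trunk- and Neurog3-gated experiments overlapped, and every Fev-gated experiment lay below every Neurog3-gated one. The log2 difference of Neurog3- from trunk-gated wells was -1.04 ± 0.43 (SE, edgeR's quasi-likelihood test with the experiment as a block, Benjamini-Hochberg adjusted p = 0.19, lower in 3 of 4 experiments). That of Fev- from Neurog3-gated wells was -5.95 ± 0.48 (edgeR adjusted p = 1.26e-06, lower in 4 of 4 experiments).

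Onecut1 also fell at the Fev step, from an uneven level. Its trunk-gated level was 0 to 90.4 CPM over 7 experiments, with a median of 12.7. In Neurog3-gated wells it was 52.3 in EP10, 46.5 in EP11, 0 in EP12 and 8.83 in EP14, and in Fev-gated wells at most 1.35 in any of 6 experiments. The 0 values of EP16 and EP17, the smallest Fev-gated sums, allow levels above 1.35. EP12 was at 0 already in Neurog3-gated wells. The log2 difference was -0.69 ± 0.45 between Neurog3 and trunk (edgeR adjusted p = 0.43) and -4.82 ± 0.63 between Fev and Neurog3 (edgeR adjusted p = 6.92e-05, lower in 3 of 4 experiments). With live-sorted wells alone, the Fev against Neurog3 difference of Onecut1 was -2.05 and that of Fev against trunk -2.79, and neither passed the test. For the other factor, Glis3, 92 wells held any transcript. Its level was 0 to 6.60 CPM in trunk-gated wells and 19.8, 2.21, 0 and 0 in Neurog3-gated wells of EP10, EP11, EP12 and EP14. In Fev-gated wells it was 0 to 6.42, with EP10 again the highest, so no order of the 3 gates could be read at this depth.

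Bicc1 and Dcdc2a, the cyst- and cilium-related members, followed Spp1 in direction. Bicc1 was at 11.7 to 410 CPM in trunk-gated wells, with a median of 164. In Neurog3-gated wells it was at 216 in EP10, 28.8 in EP11, 42.3 in EP12 and 159.8 in EP14, and in Fev-gated wells at 0 to 30.6, with a median of 16.9. The highest Fev-gated experiment, EP16, lay just above the lowest Neurog3-gated one, EP11. Its log2 difference was -0.63 ± 0.36 at the Neurog3 step (edgeR adjusted p = 0.36) and -2.60 ± 0.39 at the Fev step (edgeR adjusted p = 0.000149, lower in 4 of 4 experiments). Dcdc2a was at 28.1 to 631 CPM in trunk-gated wells, with a median of 175. In Neurog3-gated wells it was at 252 in EP10, 24.4 in EP11, 61.4 in EP12 and 191 in EP14. In Fev-gated wells it was at 2.70 to 46.7, with a median of 9.51, and the highest of these, EP17, rests on 11 wells. Its log2 difference was -0.77 ± 0.36 at the Neurog3 step (edgeR adjusted p = 0.25) and -3.76 ± 0.41 at the Fev step (edgeR adjusted p = 1.54e-05, lower in 4 of 4 experiments).

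Anxa2, the membrane-binding member, stood at 72.8 to 501 CPM in trunk-gated wells, with a median of 278. In Neurog3-gated wells it stood at 265 in EP10, 71.6 in EP11, 171.5 in EP12 and 366 in EP14, and in Fev-gated wells at 0 to 52.3, with a median of 3.29. Fev-gated experiments all lay below the Neurog3-gated ones. The log2 difference was -0.64 ± 0.44 at the Neurog3 step (edgeR adjusted p = 0.47) and -3.53 ± 0.48 at the Fev step (edgeR adjusted p = 7.59e-05, lower in 4 of 4 experiments). In 2 of the 6 Fev-gated experiments, EP16 and EP17, no Anxa2 transcript was counted. They were the smallest Fev-gated sums, so a 0 there allows a level above the gate's median.

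EP18 entered none of the 3 comparisons of this fit, as its Neurog3- and Fev-gated wells were fewer than 10. Over all genes tested in the fit, 1.4% were lower in Neurog3- than in trunk-gated wells, 19.2% lower in Fev- than in Neurog3-gated wells and 25.3% lower in Fev- than in trunk-gated wells, against 0, 5 and 5 of the 5 members tested. The members' median log2 differences were -0.69, -3.76 and -4.54, beside -0.06, -0.05 and -0.04 over all genes. The 3 comparisons come from the same 16 sums and are not independent of each other. The labels do not say that experiments came from separate litters, so p-values measure the spread between experiments, which may be partly technical. Trunk-gated wells came mostly from live plates (208 of 216) and Fev-gated wells mostly from MIP-GFP plates (294 of 357). At the Neurog3 step the members called depended on the setting. With EP10 left out, Spp1 (-1.13) and Dcdc2a (-1.14) passed, and with Neurog3 and Fev gates of at least 4 transcripts Spp1, Onecut1 and Dcdc2a passed. In EP10, 5 of the 10 trunk-gated wells came from the MIP-GFP plate and 50.0% of the 10 wells held an Spp1 transcript, against 97.6% to 100% in the other experiments.

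**Figure D2:**
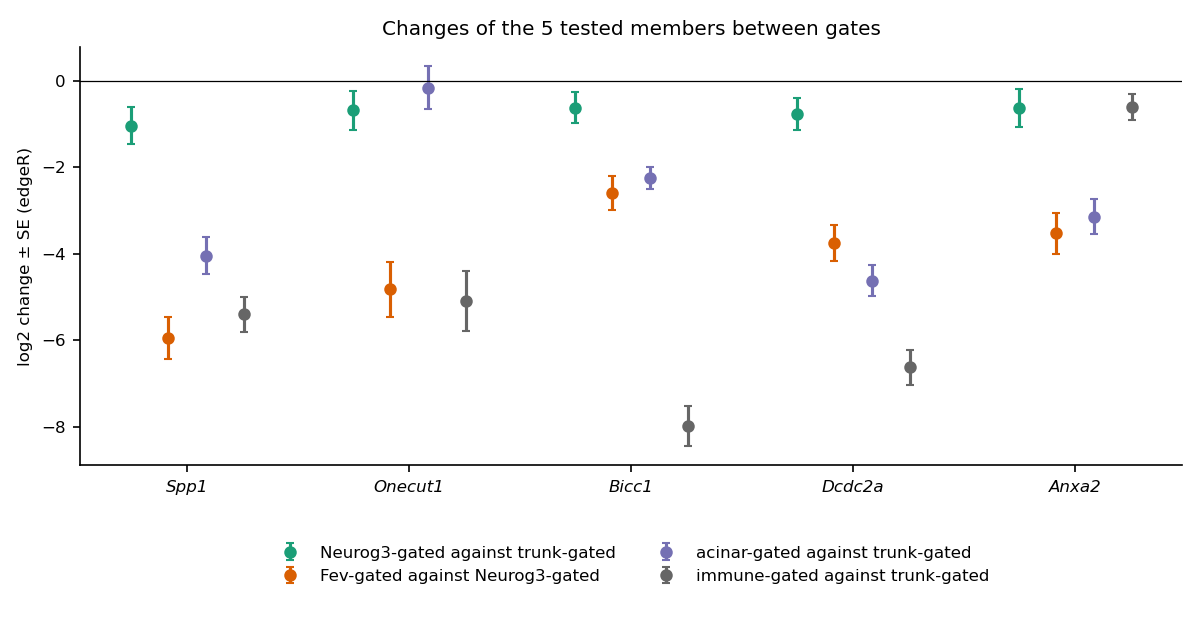
Log2 change with its standard error from edgeR for the 5 members that could be tested, in 4 comparisons between gates. Values for Neurog3 against trunk lie between -1.04 and -0.63, and those for Fev against Neurog3 between -5.95 and -2.60. Comparisons with trunk share the trunk-gated sums.

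Within the Neurog3 gate, the wells with the most Neurog3 held less of 5 members than the other wells, and Glis3 did not follow them. Pooled over experiments, Spp1 was at 1751 CPM in the 29 wells with 2 to under 5 Neurog3 transcripts, 2231 in the 30 wells with 5 to under 20 and 683 in the 81 wells with 20 or more. Dcdc2a went from 339 through 131 to 25.8 and Bicc1 from 243 through 148 to 29.3. Anxa2 stayed near its level over the first 2 ranges, at 351 and 345, and was at 92.2 in the last, while Onecut1 went from 59.6 through 28.5 to 2.17. Glis3 was at 6.25, 0 and 7.98, and in EP10 at 11.3 below 20 Neurog3 transcripts and 31.6 from 20 on. The direction was the same in each of the 4 experiments with enough wells for Spp1, Bicc1, Dcdc2a and Anxa2. For Spp1, wells below 20 Neurog3 transcripts against the rest gave 1607 and 596 in EP10, 562 and 115 in EP11, 1992 and 928 in EP12 and 3081 and 621 in EP14. Median depth was 25448, 16476 and 16004 transcripts per well in the 3 ranges, and its part in these differences was not tested. These are values of pooled wells without a test.

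Wells outside these gates gave further pooled levels, which did not fall in a single order. In the 268 wells with both Neurog3 and Fev, Spp1 was at 149 CPM and Anxa2 at 48.4, between the Neurog3 gate (1312 and 220) and the Fev gate (28.0 and 24.7). Wells with a single Neurog3 transcript and no Fev (99) stood at 836 for Spp1 and 309 for Anxa2. In wells with a single Fev transcript and no Neurog3 (137), Spp1 was at 397 CPM, above the wells with both. Anxa2 was at 262 there, above the Neurog3 gate. Over 4 experiments Spp1 ran from 0 to 708 in these wells and from 4.54 to 218 in the wells with both. None of these differences was tested.

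Single wells went from several members in the trunk gate to 1 or none in most of the Fev gate. Of trunk-gated wells, 96.8% held an Spp1 transcript, 79.2% Anxa2, 62.5% Dcdc2a, 61.1% Bicc1, 34.3% Onecut1 and 5.56% Glis3. In Neurog3-gated wells the shares were 66.4%, 52.1%, 32.1%, 40.0%, 17.9% and 7.14% in the same order. In Fev-gated wells they were 15.7%, 10.4%, 12.6%, 25.2%, 0.84% and 3.08%, with Bicc1 the most frequent. With wells thinned to 2000 transcripts, Bicc1 and Spp1 were both at 3.36% there. At least 3 members were found in 73.6% of trunk-gated wells (Wilson 95% interval 67.4 to 79.0), 42.1% of Neurog3-gated wells (34.3 to 50.4) and 3.92% of Fev-gated wells (2.35 to 6.47). Thinned in the same way, the shares were 23.1%, 13.6% and 0%, with no well left out since all reach that number. No member was found in 37 of the 140 Neurog3-gated wells and in 4 of the 216 trunk-gated wells. Intervals cover counting error only, and median depths were 16740, 17583 and 18952 transcripts.

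**Figure D3:**
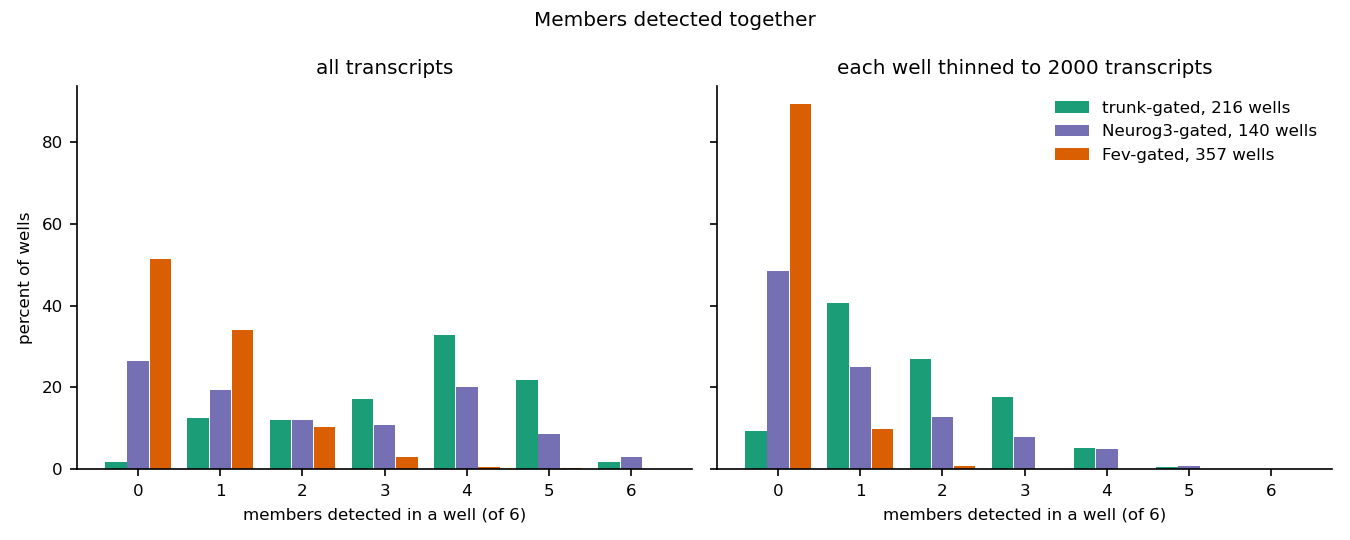
Percent of wells (bars) by the number of the 6 members detected, for trunk-, Neurog3- and Fev-gated wells, with all transcripts and after thinning to 2000 per well. With all transcripts, trunk-gated wells mostly hold 3 to 5 members and Fev-gated wells 0 or 1. Of Neurog3-gated wells, 26.4% then hold none and 42.1% hold 3 or more. After thinning, 40.7% of trunk-gated wells hold 1 member, and 48.6% of Neurog3-gated and 89.4% of Fev-gated wells hold none.

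Across the 216 trunk-gated wells, Spearman's rho between shares of transcripts was 0.69 for Bicc1 with Dcdc2a, 0.59 for Dcdc2a with Anxa2, 0.59 for Spp1 with Dcdc2a and 0.57 for Spp1 with Bicc1. Onecut1 gave -0.02 with Spp1 and 0.20 with Bicc1. Within single experiments the pair Bicc1 and Dcdc2a gave 0.38 in EP11 (49 wells), 0.62 in EP12 (45 wells) and 0.12 in EP16 (41 wells). Spp1 with Bicc1 gave 0.23, 0.29 and -0.21 in the same order. Spp1 with Dcdc2a gave 0.47, 0.37 and 0.09 there, and 0.10 in EP18 (42 wells). Dcdc2a with Anxa2 gave 0.57, 0.45, 0.27 and 0.14 in these experiments. Onecut1 gave 0.37 in EP11 and -0.36 in EP16 with Spp1, and 0.05 and 0.38 with Bicc1. The pooled values therefore do not show how these genes vary between wells of the same experiment. Wells share plates, and depth and stage differ between them, so these are descriptions.

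Over the 63 sums of an experiment and a gate with at least 10 wells, the genes whose levels ran most like Spp1 were Gsta3, Ugt2b35 and 1700011H14Rik, with Pearson's r of 0.93, 0.91 and 0.90 on log2(CPM + 10). For Bicc1 they were Gpr126 (0.86), Krt19 (0.85) and Adamts16 (0.84). For Dcdc2a they were Adamts16 (0.91), Lurap1l (0.89) and Tinagl1 (0.83). Anxa2 ran most like Sparc (0.90), Vim (0.88) and Slc44a2 (0.88). Onecut1 gave lower values with Cdc42ep1 (0.72), Sox4 (0.71) and Nr5a2 (0.70), as did Glis3 with Zbed6 (0.67), Luzp1 (0.64) and Cep290 (0.63). Among the members, r was highest for Bicc1 with Dcdc2a (0.80) and Spp1 with Dcdc2a (0.79), and lowest for Spp1 with Glis3 (0.26). The 63 sums share 7 experiments, and 8003 genes with a mean of at least 20 CPM were ranked.

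Genes of the surrounding pathways, from lists that hold none of the 6 members, changed in both directions. Of all genes tested, 25.3% were lower in Fev- than in trunk-gated wells and 1.4% lower in Neurog3- than in trunk-gated wells. These shares stand beside the list counts of lower genes below. The share of all genes called higher is not given, so counts of higher genes have none beside them. Of 14 duct and trunk markers other than Sox9 and Epcam, 12 were tested between Fev- and trunk-gated wells. Of these 10 were lower, 1 (Krt7, a keratin, named after its value was seen) was higher and 1 (Cldn4) was not called, with a median log2 difference of -2.14. Hes1, a Notch target, was at -4.51 ± 0.46, Cldn3, a tight junction gene, at -3.28 ± 0.29 and Pkhd1, the fibrocystin gene, at -2.89 ± 0.46. Between Neurog3- and trunk-gated wells the same 12 gave 1 lower, Krt18 at -0.89 ± 0.23, and 1 higher, Krt7 at 1.12 ± 0.22, both keratins. All of these are edgeR calls at an adjusted threshold of 0.05, as are those of the lists below.

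Of 26 progenitor factors, 22 were tested. In Fev- against trunk-gated wells 9 were lower, where 25.3% of all genes were, and 6 were higher. The Hippo pathway genes Tead2 (-3.62 ± 0.36) and Yap1 (-3.33 ± 0.29) and the nuclear receptor Nr5a2 (-2.65 ± 0.33) were among the lower ones. Onecut2, the relative of Onecut1, was higher, at 2.73 ± 0.47, where Onecut1 was at -5.52 ± 0.59. At the Neurog3 step 5 of the 22 were higher and 0 lower, led by Foxa3 (2.34 ± 0.49), Nkx2-2 (2.25 ± 0.21), Foxa2 (0.96 ± 0.22) and Prox1 (0.96 ± 0.25).

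Genes of the cilium and of cystic kidney went in both directions. Of 27 tested, 10 were higher, 5 lower and 12 not called in Fev- against trunk-gated wells, with a median of 0.43. The 5 lower ones stand beside 25.3% of all genes lower, so they do not set this list apart. Cys1, the cystin gene, was at -2.77 ± 0.36, while Anks6, a binding partner of Bicc1, was at 3.74 ± 0.62 and the ciliary transcription factor Rfx2 at 2.09 ± 0.48. Of 7 osteopontin receptor genes tested, the integrin subunits Itgb6 (-2.95 ± 0.47) and Itga9 (-1.48 ± 0.51) were among 4 lower ones, and Cd44 (2.14 ± 0.59) and Itga4 (1.53 ± 0.57) were higher. Of 10 annexin and S100 genes tested, 5 were lower and 1 was higher. S100a10, the partner of Anxa2, was at -2.77 ± 0.34, Anxa9 at -3.39 ± 0.61, Anxa7 at -0.77 ± 0.19 and Anxa4 at 1.25 ± 0.26.

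Against the tip lineage, the members differed from each other. In acinar-gated wells Spp1 was at 44.0 to 303 CPM over 4 experiments, Bicc1 at 12.7 to 38.0, Dcdc2a at 2.75 to 13.7 and Anxa2 at 15.9 to 82.2. All 4 lay below trunk-gated wells in 4 of 4 experiments. Their log2 differences were -4.05 ± 0.42 for Spp1, -2.25 ± 0.25 for Bicc1, -4.62 ± 0.36 for Dcdc2a and -3.14 ± 0.40 for Anxa2 (edgeR, adjusted p from 1.04e-07 to 3.14e-05). Onecut1 was at 27.8 in EP10, 5.27 in EP12, 9.19 in EP14 and 0 in EP17 among acinar-gated wells, beside 36.8, 6.72, 12.7 and 0 in trunk-gated wells of the same experiments. Its log2 difference was -0.17 ± 0.50 (edgeR adjusted p = 0.86), an estimate too wide to show that the gates hold the same level. Glis3 had 0 transcripts in all 189 acinar-gated wells, which allows a level of up to 0.621 CPM. Of all genes tested, 9.16% were lower in acinar-gated wells, against 4 of the 5 members tested. Of 12 duct and trunk markers tested 6 were lower and 0 higher, among them Pkhd1 (-2.50 ± 0.63), Krt7 (-1.90 ± 0.19) and Krt19 (-1.55 ± 0.37). Of 20 progenitor factors 4 were higher, among them Gata4 (3.61 ± 0.24) and Foxa3 (1.64 ± 0.42), and 6 lower. S100a10 (-3.67 ± 0.39) and Anxa5 (-2.24 ± 0.21) were lower with Anxa2, and Anxa13 was higher (4.45 ± 0.83).

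Outside the epithelium, Anxa2 and Bicc1 were found in the mesenchyme. Anxa2 was at 315 to 836 CPM in mesenchyme-gated wells over 6 experiments and was found in 92.6% of these wells, against 79.2% of trunk-gated ones. Bicc1 was at 20.8 to 112 in mesenchyme-gated wells, with the highest value in EP16, and was found in 44.7% of them. Dcdc2a was at most 6.97 and Onecut1 at most 1.67 there. The mesenchyme was not compared with trunk by a test.

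In insulin- and glucagon-gated wells the members were low. Spp1 stood out at E18.5 in insulin-gated wells. In glucagon-gated wells it was Bicc1 that lay apart at E18.5, at 38.8 CPM (others 5.56 to 18.3). Bicc1 was at 10.8 to 21.1 CPM in insulin-gated wells over 5 experiments and at 5.56 to 38.8 in glucagon-gated wells over 7. It was found in 24.4% and 22.5% of these wells, beside 25.2% of Fev-gated ones. Dcdc2a was at 1.96 to 13.2 and 0 to 7.75, Anxa2 at 1.96 to 5.66 and 0.78 to 13.0, and Onecut1 at most at 0.51 and 0.40.

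Spp1 in insulin-gated wells was at 4.71 in EP10, 4.90 in EP12, 8.78 in EP14 and 6.95 in EP17, and at 89.3 in EP16, the E18.5 experiment. EP16 alone stood apart, and the other 4 rest on 5.01 to 17.1 transcripts each, too few to order them. The fitted slope of Spp1 was 1.07 ± 0.12 log2 units per embryonic day, and that of Dcdc2a 0.50 ± 0.12 (edgeR adjusted p = 0.00166 and 0.047). Of all genes tested, 4.11% had a positive slope called, against 2 of the 3 members tested. Spp1's slope was 0.02 without EP16, 0.76 and still called without the P6-coded plate, and 0.72 and not called with the titles' stages. Dcdc2a lost its call in 8 of 14 alternatives, among them those without that plate, without EP12 or without EP14.

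The plates of EP16 differed in how Spp1 was spread over wells. On the MIP-GFP plate 22.8% of 294 insulin-gated wells held a transcript and the level was 41.4 CPM. The level was 83.4 on the live plate (20 wells, 50.0% with a transcript) and 124 on the P6-coded plate (291 wells, 30.6%). On the same live plate, 129 mesenchyme-gated wells, cells for which the gene is not a marker, gave 56.3 CPM, and 43.4% of them held a transcript. The 21 immune-gated wells, whose macrophages can make osteopontin, gave 78.5 CPM, and 42.9% of them held one. Median depths of these 3 groups were 15619, 10045 and 7124 transcripts. The Wilson 95% interval of the share was 29.9 to 70.1% in insulin-gated and 35.2 to 52.0% in mesenchyme-gated wells of that plate, so the intervals overlapped, and the difference was not tested. The 40 trunk-gated wells there were at 7349 CPM. Also on the live plate, 8 wells with somatostatin as the main hormone were at 785 CPM, and 87.5% of them held a transcript. On the MIP-GFP plate 8 glucagon-gated wells were at 38.7 CPM, beside 41.4 in insulin-gated wells.

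On the P6-coded plate, most of the Spp1 in insulin-gated wells sat in few wells. Over EP16, 15 of 605 insulin-gated wells held 10 or more Spp1 transcripts, up to 148, and carried 65.2% of all Spp1 in the gate. Of these, 13 were on the P6-coded plate, where they carried 77.9%, and 2 on the MIP-GFP plate, where they carried 23.0%. None was on the other live plate. Without the 15 wells the level was 32.6 CPM. The 395 insulin-gated wells of earlier stages were at 6.11, and 0 of them held 10 or more, but most of these were MIP-GFP wells. On earlier live plates the level was 23.9 in EP10 (13 wells), 0 in EP12 (3 wells), 20.4 in EP14 (5 wells) and 46.3 in EP17 (5 wells), and on earlier MIP-GFP plates 2.75 to 7.82, a difference between sorts that was not tested. The 15 wells, chosen by their Spp1, had a median insulin share of 18.49% of transcripts, beside 16.1% in the other 590, and a median depth of 30788, beside 16086. Dcdc2a was at 50.5 CPM in them (7 of 15 wells) beside 11.4 (80 of 590), Anxa2 at 10.1 (2 of 15) beside 1.75 (17 of 590) and Bicc1 at 36.3 beside 20.3. The duct and epithelial markers stood at 24.2 beside 23.8 for Krt19, 91.2 beside 94.7 for Sox9, 332 beside 378 for Krt18 and 215 beside 253 for Epcam. What set these wells apart was not tested. EP16 glucagon-gated wells were at 38.9 CPM of Spp1, and the other 6 experiments of that gate at 1.21 to 34.6.

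In immune cells Spp1, which macrophages are known to be able to make, was rare and uneven. It was at 11.7 CPM in EP10, 2.44 in EP11, 113 in EP12, 102 in EP14, 78.5 in EP16 and 39.1 in EP18. A transcript was found in 17.0% of the 270 immune-gated wells (Wilson 95% interval 13.0 to 21.98), beside 23.8% of mesenchyme-gated wells, with median depths of 14223 and 14346. The sorts differed: 202 of the 270 immune-gated wells came from MIP-GFP plates, and 637 of the 647 mesenchyme-gated wells from live plates. The part of the sort in these shares was not tested. A count of 6 wells, on the MIP-GFP plates of EP12 and EP14, held 11.2 to 59.4 Spp1 transcripts each and 69.6% of all Spp1 in the gate. Without them the gate was at 20.8 CPM, beside 21.4 in mesenchyme-gated wells. Tyrobp, which the gate itself requires, was at 1258 CPM in the 6 wells together, beside 1041 in the other 264. C1qa was found in 5 of the 6, beside 201 of the 264. Epcam, Sox9, Krt18, Krt19 and Bicc1 were at 0 in the 6 wells, while 4 held Anxa2 and 1 held Dcdc2a.

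**Figure D4:**
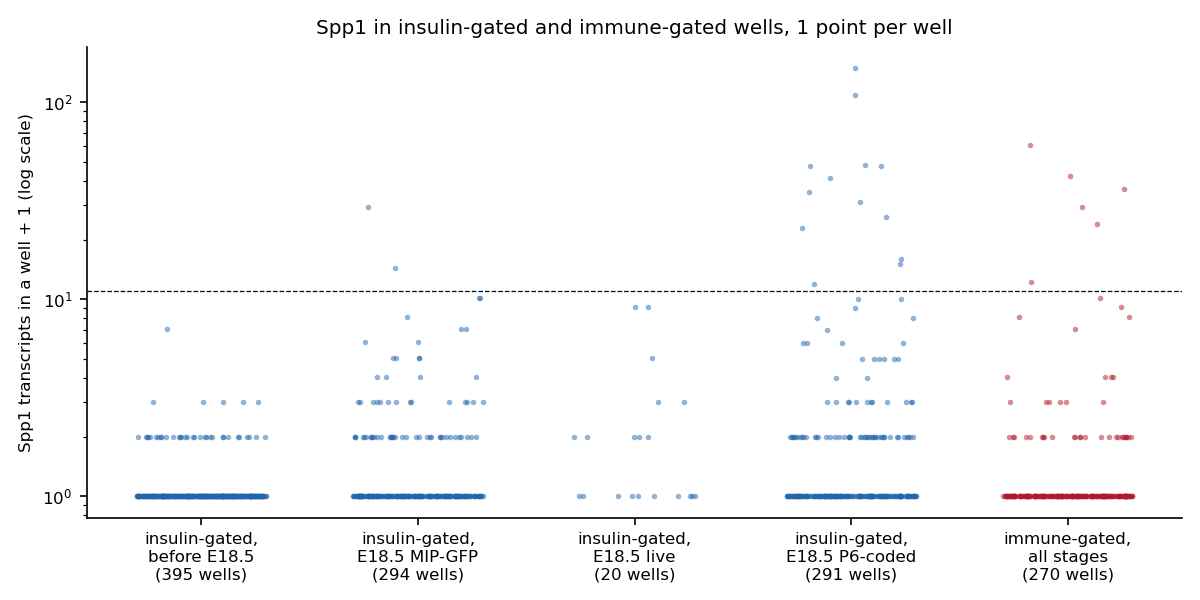
Spp1 transcripts per well plus 1 (log axis) in insulin-gated wells before E18.5 and on the 3 E18.5 plates, and in immune-gated wells, with 1 point per well. The dashed line marks 10 transcripts, which 15 of 605 insulin-gated wells at E18.5 and 6 of 270 immune-gated wells reached.

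Against trunk-gated wells, immune-gated wells were lower in Spp1 (-5.41 ± 0.40), Onecut1 (-5.09 ± 0.68), Bicc1 (-7.98 ± 0.46) and Dcdc2a (-6.62 ± 0.41), by edgeR with adjusted p from 3.46e-08 to 4.72e-05 and in 6 of 6 experiments each. Bicc1 was at 0 in 5 of the 6 immune-gated experiments. Anxa2 was the tested member that did not pass, at 60.7 to 199.7 CPM, with a log2 difference of -0.61 ± 0.30 (edgeR adjusted p = 0.11, lower in 5 of 6 experiments). It passed the test without EP10, at -0.86, with no filter on low counts, at -0.69, and with a trunk gate of at least 2 Epcam transcripts, at -0.85. Of all genes tested, 19.8% were lower in immune-gated wells, against 4 of the 5 members. Of the 7 osteopontin receptor genes tested 6 were higher, led by Cd44 (6.12 ± 0.30), Itga4 (4.62 ± 0.43) and Itga9 (3.55 ± 0.27), and Itgb6 was lower (-4.90 ± 0.82). Of 10 annexin and S100 genes 5 were higher, with Anxa3 at 6.36 ± 0.72 and Anxa1 at 6.11 ± 0.52, and 2 were lower.

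By stage, trunk-gated wells of E12.5 held less Bicc1 and Dcdc2a than those of any later experiment. Dcdc2a was at 83.4 and 28.1 CPM in EP11 and EP18, 175 in EP12, 264 in EP14, 143 and 235 in EP10 and EP17, and 631 in EP16. The fitted slope was 0.51 ± 0.10 log2 units per day (edgeR adjusted p = 0.03), with 1 of 5 tested members called beside 0.977% of all genes called with a positive slope. Bicc1 was at 43.0 and 11.7 in EP11 and EP18, 138 in EP12, 225 in EP14, 164 and 206 in EP10 and EP17, and 410 in EP16, with a slope of 0.55 ± 0.13 (edgeR adjusted p = 0.067). Spp1 was at 947 and 1991, 2431, 3194, 1112 and 5228, and 7236 in the same order, and its slope was 0.36 ± 0.12 (edgeR adjusted p = 0.21). The 2 E15.5 experiments lay on both sides of the E13.5 and E14.5 values. Anxa2 was highest in EP17, at 501, and had a slope of 0.24 ± 0.14 (edgeR adjusted p = 0.55). The Dcdc2a slope lost its call without EP11 (0.51), without EP16 (0.58) or without EP18 (0.41), and the E18.5 value comes from 1 experiment. Without EP10, Spp1 (0.40) and Bicc1 (0.55) passed as well.

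Onecut1 differed between the 2 experiments at E12.5, while Glis3 was too rare to compare experiments of the same stage. Among trunk-gated wells Onecut1 was at 90.4 in EP11 and 7.03 in EP18, both E12.5, at 36.8 in EP10 and 0 in EP17, both E15.5, and at 83.1 in EP16. The E15.5 pair rests on 7.04 Onecut1 transcripts in EP10 and 0 in EP17, whose 12 wells had a median depth of 6246. EP12 and EP14 were at 6.72 and 12.7. The 3 experiments with high Onecut1 also had high levels of 2 abundant nuclear RNAs. Malat1 was at 3300 to 4729 CPM in EP10, EP11 and EP16 and 452 to 596 in the other 4, and the ribosomal precursor Rn45s at 4365 to 34119 against 74.7 to 1285. Their part in the result was not tested. Glis3 was at 4.59 to 6.60 in these 3 experiments, on 1.00 to 8.03 transcripts each. In the other 4 it was at 0 to 2.12, on at most 1.00 each, too few to order the experiments. The slope of Onecut1 was 0.12 ± 0.18 (edgeR adjusted p = 0.87).

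**Figure D5:**
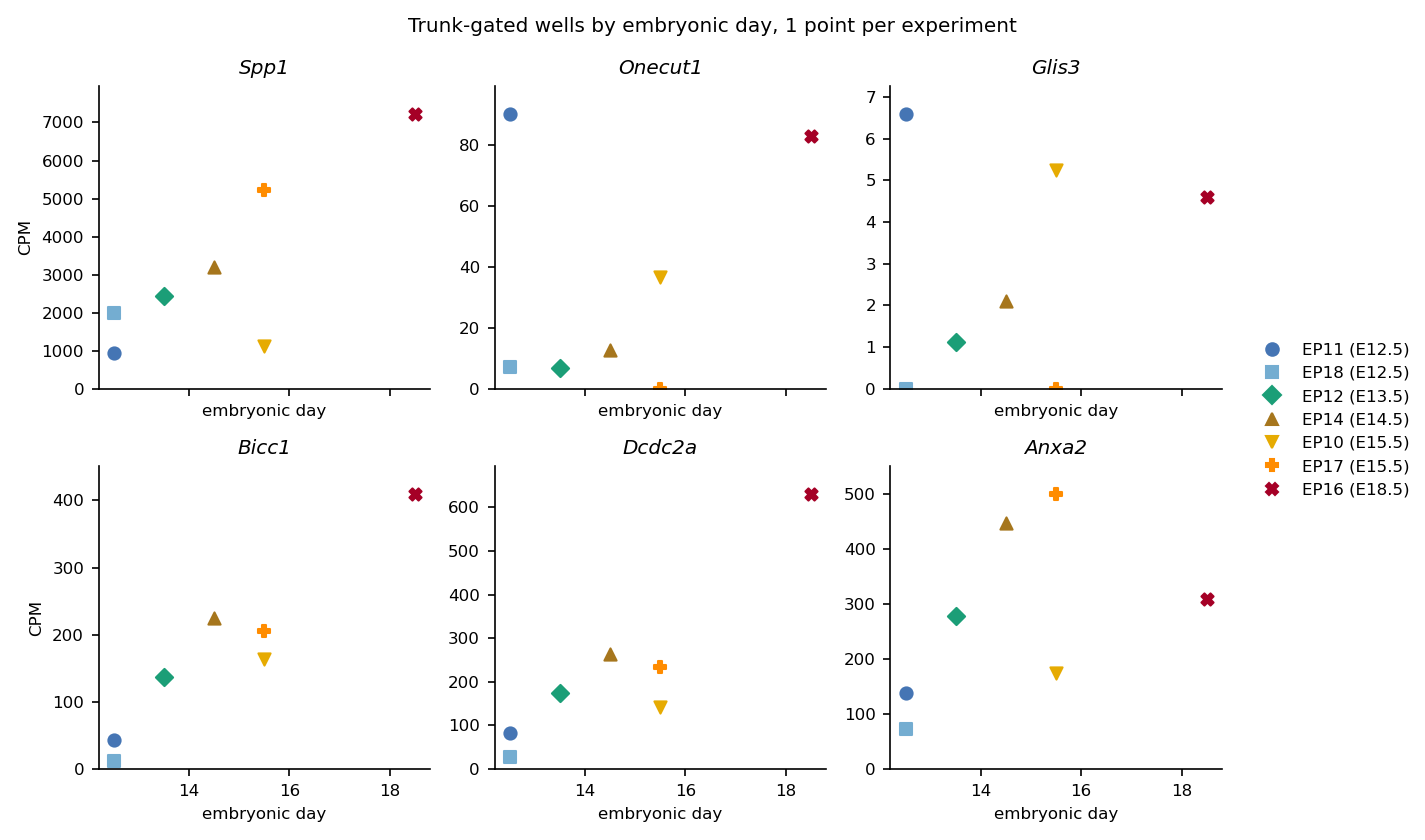
Level of each member in trunk-gated wells (CPM) against embryonic day, with 1 point per experiment. Dcdc2a, Bicc1 and Spp1 are highest in EP16 at E18.5, while Onecut1 is at 90.4 and 7.03 in the 2 E12.5 experiments.

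In live epithelial wells as a whole (Epcam at least 1, outside the immune gate), no member had a slope that passed the test, where 7.77% of all genes did, in either direction. Spp1 was at 501 to 1170 CPM over the 7 experiments, with a median of 1009 and 1033 in EP16. Its slope was 0.04 ± 0.10 per day (edgeR adjusted p = 0.84). Dcdc2a came closest, at 0.31 ± 0.10 (edgeR adjusted p = 0.081), followed by Bicc1 at 0.27 ± 0.12, Glis3 at 0.13 ± 0.31, Onecut1 at -0.27 ± 0.24 and Anxa2 at 0.00 ± 0.14. Dcdc2a was at 34.9 and 15.47 in EP11 and EP18, 62.0 in EP12, 80.0 in EP14, 90.9 and 41.0 in EP10 and EP17, and 96.1 in EP16. Bicc1 was at 31.8 and 18.3, 63.2, 96.7, 113 and 50.6, and 71.0 in the same order, and Anxa2 at 109 and 53.6, 123, 204, 209 and 94.0, and 56.7. For both genes EP16 was thus not the highest experiment. Onecut1 was at 79.0 in EP11, 33.2 in EP10 and at most 9.86 in the other 5. At an unadjusted p under 0.05, 2 members were counted, and DESeq2 called 1, Dcdc2a. The mix of cells differed: hormone-gated wells were 77.3% of the EP16 live epithelial wells (297 of 384), against 2.31% to 8.51% in the other experiments. Without the P6-coded plate they were 30.8% (36 of 117), and EP16 then stood at 4120 for Spp1, 373 for Dcdc2a and 236 for Bicc1. Dcdc2a (0.56) and Bicc1 (0.48) had slopes that passed the test without that plate, and both also did without hormone-gated wells, at 0.61 and 0.51. Of 23 progenitor factors tested in live epithelial wells, 4 had negative slopes that passed the test and 0 positive ones: Onecut3 (-1.51 ± 0.27), Sox11 (-0.64 ± 0.11), Tead2 (-0.52 ± 0.13) and Yap1 (-0.41 ± 0.07). Anxa5 (0.49 ± 0.07), Anxa4 (0.32 ± 0.07) and Anks6 (0.69 ± 0.16) had positive ones, and of 13 duct and trunk markers 0 passed.

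The source of the members' transcripts in live epithelial wells differed between experiments. Trunk-gated wells gave 59.2% of Spp1 in EP16, 49.1% and 51.1% in the E12.5 experiments EP11 and EP18, 42.9% in EP12, 30.5% in EP14, and 8.45% and 65.8% in EP10 and EP17. Precursor wells, with Neurog3 or Fev, gave 63.5% of Spp1 and 65.5% of Dcdc2a in EP14, more than trunk-gated wells did, but they were also 53.8% of the wells there. In EP16, hormone-gated wells gave 10.7% of Spp1, 13.4% of Dcdc2a and 26.7% of Bicc1. Without the P6-coded plate they gave 1.47%, 2.15% and 4.11%, and trunk-gated wells then gave 65.3% of Spp1.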

How the data were processed

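The submitters' processing notes name BWA, Seurat and the build mm10. The authors deposited expected counts, that is, numbers of transcripts estimated per gene in each well. The values show steps above whole numbers, as a correction for barcode collisions gives, and no scaling for depth. Of 7296 columns, 1536 matched no labelled library and were not used, as were 492 in a second table holding the authors' selection of wells, of which 2097 matched and served 1 alternative. Columns pool the libraries of a plate, so 54 libraries entered as 15 plates. The 89 spike-ins were left out. No doublet caller was run on singly sorted wells, and the 8 wells of more than 5 plate medians stayed in, with an alternative without them.

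Wells were gated as described above, hormone gates by at least 1% of transcripts and 3 times any other hormone. Expected counts were summed per experiment and gate (at least 10 wells), rounded and tested with edgeR 4.0.16 (TMM, filterByExpr, quasi-likelihood test, R 4.3.3, adjusted p under 0.05), after the fits were tested on simulated data. Comparisons between gates had the experiment as a block, since gates share plates: after removal of gate means, 14 pairs of sums of 1 experiment correlated at a median of 0.33 (lowest -0.04), and 70 pairs of different experiments at -0.04. Slopes used the embryonic day. The experiment was the replicate. DESeq2 1.42.0, other filters, gates, stages and each experiment left out were alternatives. Named genes were the 6 members, up to 4 called genes of each list and comparison with the largest change, and the 3 genes most like each member, with 1 gene and 1 promoter motif not reported here. The members and lists were chosen with earlier results of these data known. Shares have Wilson 95% intervals, and a share of 0 has the limit that 3 counts would give.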

Additional observations from a re-analysis of the deposited data

Results flagged for a closer look

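A rule that flags about 1 in 20 sets of independent, normally spread values was applied across experiments. The sets share 7 experiments of different stages, and some hold mostly 0 values, so that rate need not hold here. In 15 of 53 sets of 4 to 7 experiments (1 gate and 1 member each), 1 value lay far from the rest. In EP16, the single E18.5 experiment, these were Dcdc2a in trunk-gated wells (631 CPM, others 28.1 to 264), Spp1 in insulin-gated wells (89.3, others 4.71 to 8.78), Bicc1 in glucagon-gated wells (38.8, others 5.56 to 18.3), and Bicc1 and Dcdc2a in immune-gated wells (5.22, others at 0, and 10.4, others 0 to 3.89). In EP10 they were Glis3 in Neurog3-gated (19.8), Fev-gated (6.42), insulin-gated (5.27) and mesenchyme-gated wells (3.90), and Dcdc2a (13.7, others 2.75 to 4.55) and Anxa2 (82.2, others 15.9 to 23.9) in acinar-gated wells. The other experiments held at most 2.21, 0.87, 0.51 and 1.41 CPM of Glis3 in those 4 gates. EP11 was far above the rest for Onecut1 in live epithelial wells (79.0, others 0.97 to 33.2). In glucagon-gated wells its Onecut1 was flagged at 0.40 (others at 0), and Glis3 of EP18 at 0.79 (others at most 0.13). These glucagon-gated values, and those of Bicc1 and Dcdc2a in immune-gated wells, rest on few transcripts, so depth limits what such a flag can show. The same limit holds for the Glis3 values of EP10, as Glis3 was found in 92 of 4318 wells in all. Bicc1 in acinar-gated wells of EP17 was low, at 12.7 (others 34.4 to 38.0).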

How the results depend on the processing

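Both steps to Fev and the acinar comparison kept their counts of members called within the settings tried: 4 or 5 of 5 for Fev, where live-sorted wells alone gave 4, and 4 for acinar. Without 1 experiment each they stayed at 5, 5 and 4. The Neurog3 step, with 0 called, gave 1 with the authors' cells, 1 with live-sorted wells, 2 with sums of at least 20 wells, 2 with a trunk gate of 2 Epcam transcripts, 3 with precursor gates of 4 transcripts, and 0 to 2 without 1 experiment. Without the replicate block the counts were 0, 5, 5 and 4, and 2 instead of 4 for the immune comparison, where the filter then left out Onecut1 and Bicc1. That comparison gave 4 or 5 without 1 experiment. The live epithelial slope (0 called) gave 1 with DESeq2, 2 without the P6-coded plate and 2 without hormone-gated wells, and 0 without any 1 experiment. The trunk slope (1 called) gave 2 with DESeq2, 3 with no filter, 0 with the authors' cells, 2 with sums of at least 20 wells and 0 to 3 without 1 experiment. The insulin slope (2 called) gave 1 with the authors' cells, 1 without the P6-coded plate, 1 with an insulin gate of 5%, 0 with the titles' stages, 0 to 2 without 1 experiment, and 1 on MIP-GFP plates alone, a setting chosen after seeing the data, as was leaving out wells above 5 times their plate's median, which changed no count. Slopes in live epithelial wells that changed sign, none of them called, were those of Anxa2 with DESeq2 (0.0061), with Epcam of at least 3 (0.0042), without the P6-coded plate (0.23), without hormone-gated wells (0.27) and without EP14 (0.0081), EP16 (0.35) or EP17 (0.0046), of Spp1 without EP11 (-0.018) or EP16 (-0.074), and of Onecut1 without EP11 (0.27) or hormone-gated wells (0.029). Without 1 experiment these slopes ran from -0.11 to 0.35, -0.074 to 0.13 and -0.38 to 0.27. Mean levels in trunk-, Neurog3- and Fev-gated wells moved by less than 1 SD with thinning or means over wells, except Glis3 in trunk-gated wells, at 10.6 CPM after thinning instead of 2.81. The cause of these changes was not tested. Acinar sums of at least 20 wells could not be fitted, and the authors' cells held no immune-gated wells. Levels of Glis3 and Onecut1 rest on few transcripts, found in 92 and 285 of 4318 wells, which limits their precision.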
